A study of Arabidopsis thaliana with 6 samples.

Results

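The genes described here were weakly expressed in wild-type Arabidopsis seedlings and lower still in the csu6-2 mutant. A gene was taken when its mean over the Col-0 libraries was at least 1 and under 5 RPKM (reads scaled to gene length and library size), when this mean was at least 2 times the csu6-2 mean, and when its highest csu6-2 value lay below its lowest Col-0 value. The MADS-box genes AT5G65070 and AT5G65080 were left out by name. This left 96 genes of 4898 in the level range and of 32678 in the files. The genes were thus chosen by their RPKM values in these same libraries, and their difference between genotypes is given as a description, with no test. Tests are given for other genes around them, such as neighbours, relatives and targets of microRNAs.

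The study compared whole seedlings of csu6-2, a mutant in COP1 SUPPRESSOR 6 of Arabidopsis thaliana, with seedlings of the accession Col-0, with 3 libraries of each genotype. Both genotypes grew for 5 days in white light with no other treatment named. COP1 is a ubiquitin ligase that holds back light-dependent seedling development, and the study's title places CSU6 upstream of the growth-promoting factors PIF4 and PIF5. Neither the locus of CSU6 nor the lesion of the csu6-2 allele is named in the labels, and the level of the mutated gene was therefore not looked at. The labels do not say whether replicates came from separate cultures, so p-values measure the spread between these samples, which may be technical.

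Plant genomes hold many genes that are transcribed at a trickle in a whole seedling. Some are made in a few cells only, such as peptides secreted in the root tip, some wait for an attack or a nutrient shortage, and some are remnants of duplicated genes or of transposons. MicroRNA precursors are long RNAs that are cut quickly into short guides, so little of the precursor is present at any time. In whole seedlings, fewer cells of a type and less RNA per cell cannot be told apart.

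Of the 4898 genes in the level range, 886 (18.1%) had every csu6-2 value below every Col-0 value, and 126 (2.57%) had a csu6-2 mean at or below 50% of the Col-0 mean with or without overlap. Both conditions held for 98 (2.00%), the 2 genes left out included. The mirrored rule, which asks for a csu6-2 mean of 1 to under 5 RPKM and a rise, held for 62 of 5012 genes (1.24%). The same rule of reduction applied to genes of at least 5 RPKM in Col-0 found 48. In the limma test over 18885 genes, 1771 (9.38%) were lower and 671 (3.55%) higher in csu6-2, and with libraries rescaled by the median of ratios the split was 1110 lower and 1066 higher.

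**Figure D1:**
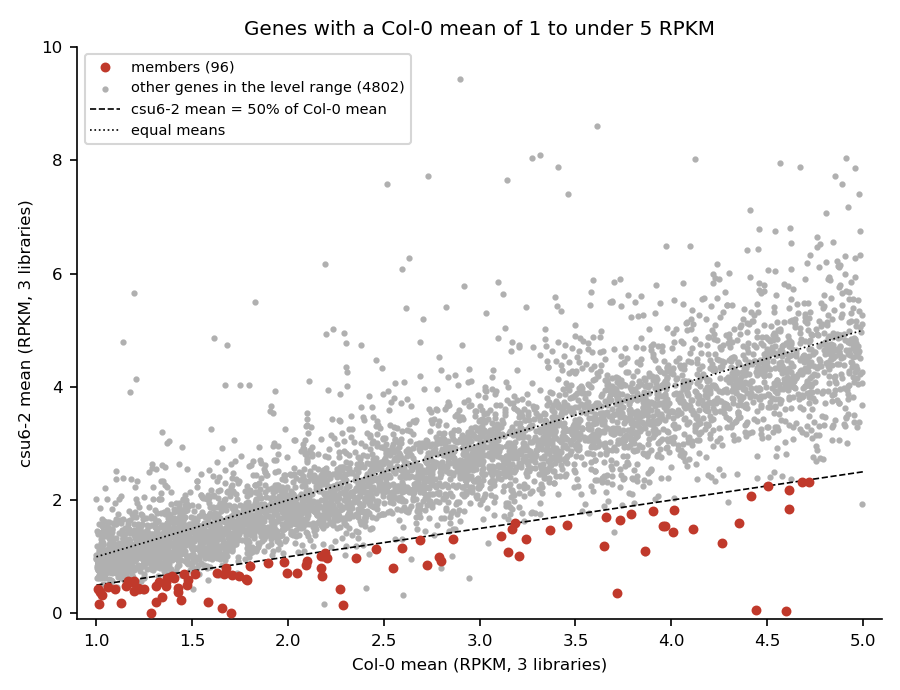
Mean RPKM in csu6-2 against mean RPKM in Col-0 for the 4898 genes with a Col-0 mean of 1 to under 5 RPKM (7 genes above 10 RPKM in csu6-2 lie outside the axis). The 96 chosen genes, in red, lie on or under the dashed line where the csu6-2 mean is 50% of the Col-0 mean.

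The 96 genes had a median csu6-2 mean of 0.718 RPKM and a median Col-0 mean of 2.10 RPKM. Their csu6-2 mean was a median of 39.5% of the Col-0 mean. It was 20% or less in 13 genes, over 20 and up to 40% in 37, and over 40% in 46. Summed over the 96 genes, the RPKM was 90.9, 80.3 and 83.9 in the csu6-2 libraries, against 227.9, 240.4 and 223.0 in the Col-0 libraries. The lowest of a gene's 3 csu6-2 values fell in replicate 1 for 27 genes, in replicate 2 for 41 and in replicate 3 for 28.

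The gap between the genotypes was often narrow. From the highest csu6-2 to the lowest Col-0 value it had a median of 0.58 RPKM and ran from 0.01 to 3.79 RPKM, and 7 genes had a gap under 0.2 RPKM. At the edge of the rule of at least 2 times, AT2G47780 (ratio 2.004) and AT5G09300 (2.007) were inside, and AT5G03495 (1.998) and NUDT6 (1.992) were outside. The nitrate transporter gene NRT2.3 (Col-0 mean 1.01 RPKM) and AT3G21030 (1.01 RPKM) were just above the lower level bound, and AT1G04570 (0.987 RPKM) and AT1G78940 (0.973 RPKM) just below it. At the upper bound, AT5G10946 (4.72 RPKM) and AT5G66607 (4.68 RPKM) were inside, and AT3G06160 (5.39 RPKM) and GIS (5.40 RPKM) outside. The plastid-numbered ATCG01200 (gap 0.01 RPKM) and AT2G38905 (0.05 RPKM) were barely free of overlap, and AT5G01225 (-0.02 RPKM) and AT1G08035 (-0.04 RPKM) barely overlapped.

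The values rest on few reads. Depth, estimated from the steps of the lowest values, was 29.1 to 37.2 M reads in csu6-2 libraries and 27.7 to 42.3 M reads in Col-0 libraries. At these depths the genes with a known length held an estimated median of 30.9 reads per csu6-2 library and 84.3 reads per Col-0 library. In 29 of 93 genes the estimate was under 20 reads in csu6-2. A value listed at 0 occurred in at least 1 csu6-2 library for 10 genes. The low-value filter of the limma test passed 79 of the 96.

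Among the genes were 4 microRNA precursors, and their mature products are printed because the known targets can be tested independently of the rule. The sequences, in DNA letters and 5′ to 3′, were read from the RefSeq TAIR10.1 genome at its annotated mature microRNAs, with the seed (bases 2 to 8) in capitals.
miR160b (chr4:9888986-9889006, plus strand): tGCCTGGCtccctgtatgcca
miR164b, 5′ arm (chr5:287586-287606, plus strand): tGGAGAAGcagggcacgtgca
miR397b (chr4:7878730-7878750, minus strand): tCATTGAGtgcatcgttgatg
miR857 (chr4:7878198-7878218, minus strand): tTTTGTATgttgaaggtgtat
No seed is shared among these. MiR160 restrains auxin response factors, miR164 restrains NAC factors that shape organ boundaries, roots and senescence, and miR397 and miR857 restrain laccases, copper enzymes that polymerise lignin.

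The MIR160b precursor was listed at 0 RPKM in all 3 csu6-2 libraries, against 1.27, 1.70 and 0.89 RPKM in the Col-0 libraries. With 89 bases, this amounted to an estimated 3.96 reads per Col-0 library, so its 0 values rest on almost no reads. MIR397b had 0.73, 0.93 and 1.13 RPKM in csu6-2, against 2.21, 2.53 and 3.65 RPKM in Col-0. MIR857 had 0.92, 0.54 and 0.65 RPKM in csu6-2, against 2.01, 1.83 and 1.15 RPKM in Col-0. For both, the rule itself requires all the Col-0 libraries to be above all the csu6-2 libraries. MIR164b had 1.79, 1.59 and 1.03 RPKM in csu6-2, against 2.08, 2.93 and 5.09 RPKM in Col-0, with replicate 3 of Col-0 well above the other two.

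Other loci that make the same microRNAs and were tested did not pass in the main limma fit. MIR160c had 4.61, 2.5 and 1.52 RPKM in csu6-2, against 7.64, 3.97 and 2.68 RPKM in Col-0 (log2 difference -0.56, SE 0.45, adjusted p = 0.497), and its replicates spread widely in both genotypes. MIR397a had 1.25, 2.21 and 0.86 RPKM in csu6-2, against 1.61, 1.29 and 3.38 RPKM in Col-0 (log2 difference -0.32, SE 0.28, adjusted p = 0.517). The genotypes overlapped for both.

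Sites of 5 tested targets are shown, with all 3 auxin response factors and 1 example each for miR164b and miR397b, and with bases that do not pair by Watson and Crick rules in capitals, so a G to U pair also counts as unpaired.
ARF17, site of miR160b (chr1:29274189-29274209, plus strand): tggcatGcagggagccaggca
ARF10, site of miR160b (chr2:12115741-12115761, plus strand): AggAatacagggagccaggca
ARF16, site of miR160b (chr4:14704141-14704161, minus strand): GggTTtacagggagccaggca
NAC1, site of miR164b (chr1:20947142-20947162, minus strand): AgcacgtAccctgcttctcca
LAC4, site of miR397b (chr2:15936120-15936140, plus strand): AGtcaacgCtgcactTaatga
The number of unpaired bases was 1 in ARF17, 2 in ARF10, 3 in ARF16, 2 in NAC1 and 4 in LAC4. NAC080 and NAC100 also had 2, ORE1 and LAC17 had 4, and LAC2, which was not tested, had 3. For miR857 the best ungapped matches in LAC7 had 7 unpaired bases, at 2 places, so no site is shown.

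Of the 10 tested targets, which are outside the 96, 0 passed the limma threshold, and at an unadjusted p under 0.05 there were 1 lower and 1 higher. Over the 18806 tested genes outside the 96, 3756 were lower and 1432 higher at that unadjusted level. Among the auxin response factors, ARF17 had a log2 difference of 0.09 (95% interval -0.14 to 0.31), ARF10 of -0.16 (-0.40 to 0.08) and ARF16 of -0.23 (-0.42 to -0.04, adjusted p = 0.101). Of the miR164 targets, the lateral root factor NAC1 had 0.13 (-0.08 to 0.34) and the senescence factor ORE1 0.24 (-0.04 to 0.51). The other two tested, NAC080 (-0.05) and NAC100 (0.03), were nearer to 0. The largest difference was that of the laccase gene LAC4, with 6.66, 5.26 and 7.47 RPKM in csu6-2, against 4.78, 4.29 and 5.22 RPKM in Col-0. Every csu6-2 library was above every Col-0 library, with a log2 difference of 0.36 (0.10 to 0.63, adjusted p = 0.0682). It passed in 3 of 12 alternatives, namely the rescaled fit, the fit with replicate numbers as a block, and the fit without csu6-2 replicate 2. LAC17 had 0.17 (-0.09 to 0.43), and LAC7, taken as a miR857 target from background knowledge and not from a site found here, had 0.02 (-0.19 to 0.23). The boundary genes CUC1 and CUC2 and the laccase gene LAC2 stayed under the low-value filter.

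**Figure D2:**
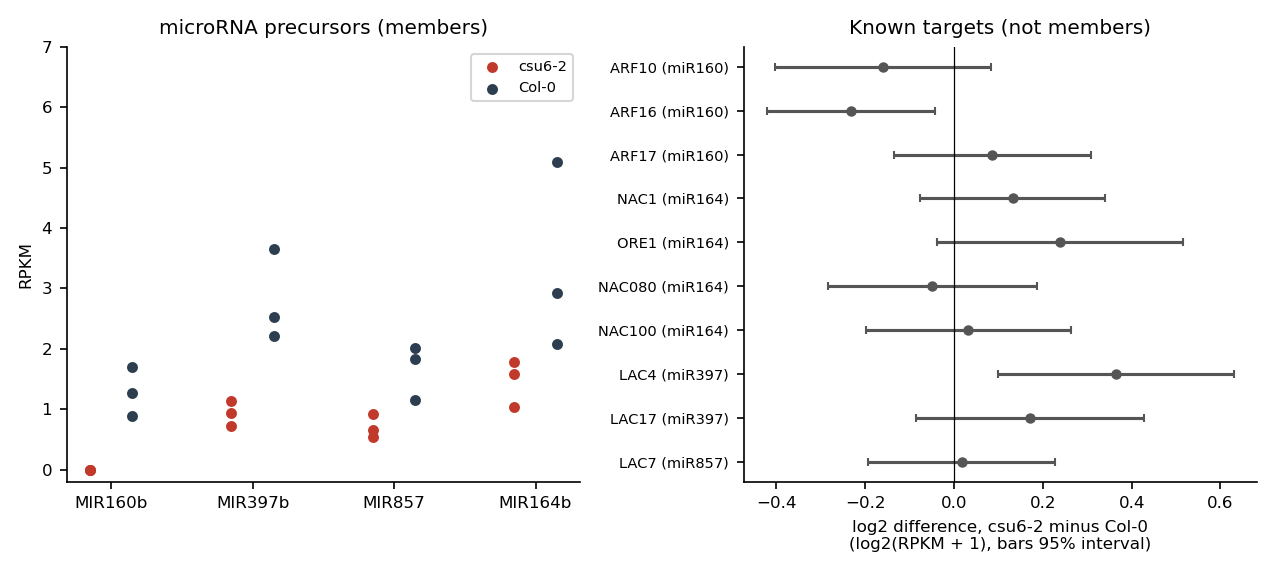
Left, RPKM of the 4 microRNA precursors in each csu6-2 and Col-0 library. Right, log2 difference (csu6-2 minus Col-0) of the 10 tested targets with 95% intervals from limma; the intervals of ARF16, at -0.23, and LAC4, at 0.36, do not include 0, and no target passed the adjusted threshold.

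By class, 82 of the 96 genes were protein-coding, 6 were pseudogenes, 4 were microRNA precursors and 1 was a long non-coding RNA (AT2G47895). The identifiers of 3 (AT1G23940, ATCG00930 and ATCG01200) matched no locus tag in the TAIR10.1 annotation, which does not mean that the genes are absent from it. Class, place and copies of these 3 were not looked at. Pseudogenes made up 6.25% of the chosen genes, against 1.00% of the genes in the level range, and microRNA precursors 4.17%, against 0.715%. The 62 genes raised by the mirrored rule held 3.23% pseudogenes and 1.61% microRNA precursors. Among protein-coding genes, 0 of 82 had a product annotated as a kinase, against 6.42% of 4670 in the level range. A transcription factor product was annotated for 5 (6.10%, against 6.77%), and a transferase product of any kind for 7 (8.54%, against 5.18%).

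The chosen genes were short. Their exons summed to a median of 1095 bases, against 1828 bases in the level range, and 44.1% of them were under 1000 bases, against 15.8%. The genes raised by the mirrored rule were as short, with a median of 1123.5 bases and 45.2% under 1000 bases. A single exon was annotated for 33.3% of the chosen genes, against 24.5% of the range, and the median GC content of exons was 40.3%, against 40.9%. Short genes collect fewer reads at the same RPKM, and the part of that in these shares was not tested.

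**Figure D3:**
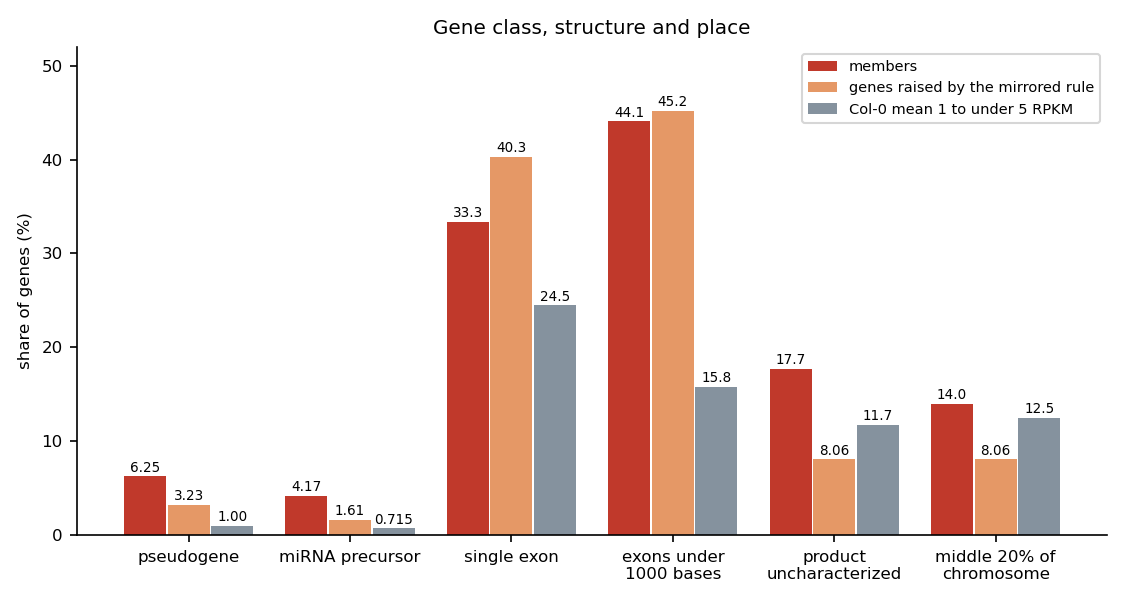
Share of genes (%) by class, exon structure, product and place, for the 96 reduced genes, the 62 genes raised by the mirrored rule and the 4898 genes with a Col-0 mean of 1 to under 5 RPKM. Exons under 1000 bases are found in 44.1% of the reduced and 45.2% of the raised genes, against 15.8% of the range.

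The 93 genes with a place were spread over all chromosomes, with 20 on chromosome 1, 16 on 2, 18 on 3, 16 on 4 and 23 on 5. In the middle 20% of a chromosome's length there were 13 of them (14%), against 12.5% of the level range. The outer 20% at either end held 46 (49.5%), against 49.3%. Within 50 kb of another chosen gene there were 22 genes, in 10 runs.

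The widest gaps between the genotypes, in RPKM, were those of 2 of the 6 pseudogenes; by ratio the 6 ran from 1.09 to 39.2% of the Col-0 mean. AT2G15750 (chr2:6862922-6864116) had 0, 0.08 and 0.07 RPKM in csu6-2, against 4.53, 3.87 and 5.40 RPKM in Col-0, or an estimated 1.30 and 125.1 reads per library. AT4G01980 (chr4:863351-864259) had 0.09, 0.07 and 0 RPKM in csu6-2, against 3.67, 4.96 and 4.69 RPKM in Col-0. Both were nearly silent in every csu6-2 library and among the better expressed of the 96 in every Col-0 library. AT4G01980 is 98.8% identical over 910 bases to the pseudogene AT2G22710, so reads could be split between the copies. AT2G22710 averaged 0.24 RPKM in csu6-2 and 0.0933 RPKM in Col-0, far below the Col-0 level of AT4G01980. AT1G67626 had 0.08, 0.32 and 0.20 RPKM in csu6-2, against 1.26, 1.35 and 1.32 RPKM in Col-0, and its copies AT4G20725 (99.1% identical) and AT1G58020 (98.9%) were listed at 0 in all libraries.

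The other 3 pseudogenes stand side by side on chromosome 3, on the plus strand and with no gene between them. AT3G21010 (chr3:7366210-7367748) had 0.43, 0.88 and 0.70 RPKM in csu6-2, against 1.94, 1.34 and 1.85 RPKM in Col-0. AT3G21020 had 0.51, 0.24 and 0.20 RPKM in csu6-2, against 0.85, 1.15 and 1.09 RPKM in Col-0. AT3G21030 had 0.13, 0 and 0.35 RPKM in csu6-2, against 1.28, 1.12 and 0.64 RPKM in Col-0. AT3G21010 and AT3G21020 share 85.7% of 581 aligned bases. Related copies continue downstream: AT3G21040 had 0.13, 0.27 and 0.07 RPKM in Col-0 and at most 0.02 RPKM in csu6-2, while AT3G21050 had 0.23, 0.67 and 0.41 RPKM in csu6-2, against 0.68, 0.71 and 0.66 RPKM in Col-0, so that csu6-2 replicate 2 overlapped Col-0. Beyond the run, the photosystem II subunit gene PSBTN (log2 difference 0.13, adjusted p = 0.295) and RBL (-0.22, adjusted p = 0.173) did not pass the limma test.

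Among protein-coding genes, AT3G44006, of unknown product, was listed at 0 in all 3 csu6-2 libraries, against 1.53, 2.17 and 1.41 RPKM in Col-0, an estimated 41.2 reads per library. MRD1 (AT1G53480), named for a fall in a methionine-overproducing mutant, had 0.13, 0 and 0.15 RPKM in csu6-2, against 1.79, 1.88 and 1.30 RPKM in Col-0. It shares 1446 bases with HEI10, a meiotic crossover gene on the opposite strand. HEI10 itself had 0.83, 0.64 and 1.12 RPKM in csu6-2, against 1.83, 1.62 and 1.14 RPKM in Col-0 (log2 difference -0.44, SE 0.15, adjusted p = 0.0805). Without the strand setting of the counting, reads of MRD1 and HEI10 cannot be told apart.

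**Figure D4:**
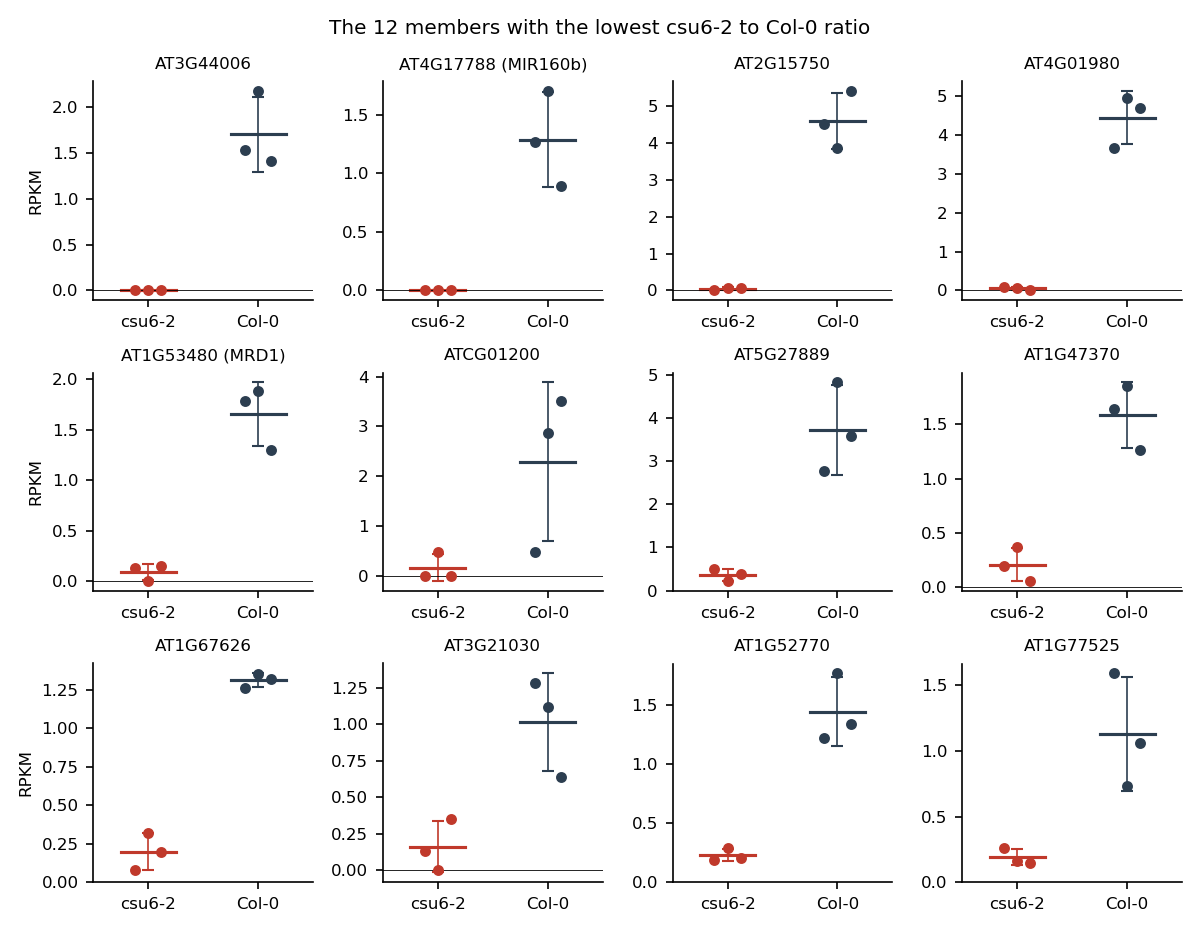
RPKM in each library (points) with mean and SD (bars, n = 3 each) for the 12 genes with the lowest ratio of csu6-2 to Col-0. AT3G44006 and MIR160b are at 0 in every csu6-2 library, and ATCG01200 is the one whose groups almost touch, with a gap of 0.01 RPKM.

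Genes of the immune system included 4 members. AT1G47370 encodes a protein with little more than a TIR domain, the signalling part of many intracellular immune receptors; it had 0.20, 0.37 and 0.06 RPKM in csu6-2, against 1.64, 1.85 and 1.26 RPKM in Col-0. The TIR-NBS gene AT1G17610 had 0.71, 0.35 and 0.40 RPKM in csu6-2, against 1.36, 1.27 and 1.31 RPKM in Col-0. AT1G17610 overlaps the resistance gene AT1G17600 on the opposite strand over 3193 bases, and AT1G17600 had 0.60, 0.27 and 0.24 RPKM in csu6-2, against 1.01, 0.63 and 0.78 RPKM in Col-0. Both stood higher in every Col-0 library, and their reads cannot be told apart without strand.

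PR5, a thaumatin-like marker of salicylic acid defence, had 0.87, 1.86 and 0.66 RPKM in csu6-2, against 2.70, 2.39 and 2.29 RPKM in Col-0. ACD6, an ankyrin-repeat membrane protein that raises salicylic acid, had 1.94, 1.53 and 1.01 RPKM in csu6-2, against 2.24, 4.17 and 3.09 RPKM in Col-0. Their groups were close, since csu6-2 replicate 2 in PR5 and Col-0 replicate 1 in ACD6 lay nearest to the other genotype. In the list of salicylic acid defence genes, 0 of 7 tested non-members passed the limma test in either direction, against 9.38% lower and 3.55% higher over all genes, and 0 had an unadjusted p under 0.05. PR1 was at or under 0.10 RPKM in every library.

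A group of 4 small secreted defence-like peptides was reduced by the rule, with 16.9 to 35.7% of the Col-0 mean. Products annotated as defensin-like, thionin or low-molecular-weight cysteine-rich made up 4.17% of the 96 genes and 9 of 4898 genes (0.184%) in the level range. The defensin-like gene AT1G77525 had 0.26, 0.16 and 0.15 RPKM in csu6-2, against 1.59, 0.73 and 1.06 RPKM in Col-0. LCR50, a low-molecular-weight cysteine-rich peptide, had 0, 0.80 and 0.49 RPKM in csu6-2, against 3.28, 1.82 and 1.72 RPKM in Col-0. These are short genes, and AT1G77525 held an estimated 2.74 reads per csu6-2 library and 15.2 per Col-0 library. The thionin gene AT5G63087 and the defensin-like AT4G22214 were the other two. Next to AT4G22214, the defensin-like AT4G22217 went the other way, with 1.72, 1.92 and 1.91 RPKM in csu6-2, against 1.24, 1.07 and 0.93 RPKM in Col-0 (log2 difference 0.46, SE 0.13, adjusted p = 0.0336). Its call was lost without csu6-2 replicate 2 or 3 or without Col-0 replicate 2 or 3. The relatives LCR69 (-0.46, adjusted p = 0.0159) and LCR68 (-0.28, adjusted p = 0.0181) were lower in csu6-2 at a far higher level, and both calls were lost without replicate 2 of either genotype, that of LCR69 also without csu6-2 replicate 3 and that of LCR68 also in the rescaled fit.

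Peptide signals are encoded by 5 genes, with 35.7 to 49% of the Col-0 mean. CLE2, of the CLAVATA3-related family that signals through receptor kinases, had 1.45, 1.46 and 1.39 RPKM in csu6-2, against 3.17, 4.74 and 4.12 RPKM in Col-0. RGF1, which maintains the stem cell niche of the root tip, had 0.20, 0.32 and 0.76 RPKM in csu6-2, against 1.12, 1.27 and 0.90 RPKM in Col-0. CLE2 was tight in csu6-2 and well apart from Col-0, whereas RGF1 in csu6-2 replicate 3 came within 0.14 RPKM of Col-0 replicate 3. CLE10, RALFL19 and IDL2, relatives of CLE2, of the alkalinising factor RALF and of the abscission peptide IDA, completed the group.

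Relatives of these peptides outside the 96 were tested, beside 9.38% lower and 3.55% higher over all tested genes. Of these relatives, 1 of 19 CLE genes was lower and 0 higher, 1 of 7 RALF-like genes was lower and 1 higher (RALFL34 and RALFL22, each lost without csu6-2 replicate 2 or 3 or Col-0 replicate 2, among others), 0 of 4 IDA-like genes passed (0 also at an unadjusted p under 0.05), and 1 of 8 root growth factor genes was higher. That gene, RGF6, averaged 36.2 RPKM in csu6-2 and 23.6 RPKM in Col-0 (log2 difference 0.59, SE 0.10, adjusted p = 0.00188), opposite to RGF1. CLE43 was lower (-0.36, adjusted p = 0.0267), and this call was lost in 5 of 12 alternatives. Among them were the rescaled fit and the leaving out of csu6-2 replicate 1 or 3 or Col-0 replicate 2 or 3. In the rescaled fit 0 of the 19 CLE genes were lower and 2 higher, and without csu6-2 replicate 2 there were 1 lower and 1 higher.

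Specialised metabolism gave 6 genes, and 3 of them are described first, together with nearby genes that moved in the same direction. The thalianol cluster on chromosome 5 is a row of root-expressed genes that build triterpenes shaping the root microbiota. Its acyltransferase gene AT5G47980 (chr5:19428888-19430517) had 1.51, 0.55 and 1.41 RPKM in csu6-2, against 3.27, 2.62 and 1.89 RPKM in Col-0. The acyltransferase gene AT5G47950, 10230 bases away with 2 genes between, had 2.06, 1.25 and 2.15 RPKM in csu6-2, against 4.88, 4.40 and 2.76 RPKM in Col-0. In both, csu6-2 replicate 2 was lowest and Col-0 replicate 3 lay closest to csu6-2.

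The other genes of the cluster were expressed well above the range and could be tested. The thalianol hydroxylase gene CYP708A2 had 12.90, 8.80 and 12.24 RPKM in csu6-2, against 21.58, 22.06 and 16.60 RPKM in Col-0 (log2 difference -0.78, SE 0.15, adjusted p = 0.00899). The synthase gene THAS1 had 18.28, 10.49 and 14.33 RPKM in csu6-2, against 30.79, 29.51 and 23.21 RPKM in Col-0 (log2 difference -0.93, SE 0.20, adjusted p = 0.0279). CYP705A5 was 15 ± 4.66 RPKM in csu6-2 and 29.1 ± 5.64 RPKM in Col-0 (SD, n = 3 each), with a log2 difference of -0.93 and an adjusted p of 0.0789 in limma. Groups did not overlap in any of these 3 genes. The THAS1 call was lost without csu6-2 replicate 3, Col-0 replicate 1 or Col-0 replicate 2, with adjusted p up to 0.131, and CYP708A2 passed in all 12 alternatives. The genes that interrupt or flank the cluster did not pass, namely RABA4C (-0.24, adjusted p = 0.217), AT5G47970 (0.05, adjusted p = 0.788), AT5G47940 (0.12, adjusted p = 0.524) and AT5G48020 (0.01, adjusted p = 0.970). Over the list of root triterpene genes, 2 of 8 tested non-members were lower and 0 higher, against 9.38 and 3.55% of all tested genes. The 2 are CYP708A2 and THAS1. The list's median log2 difference was -0.46, against -0.07 over all tested genes. At an unadjusted p under 0.05 there were 4 lower and 1 higher, the higher one being PEN1 (0.22). At that level, 3756 of the 18806 tested genes not chosen were lower and 1432 higher. The lower calls fell to 1 without csu6-2 replicate 3 or Col-0 replicate 1 or 2. They rose to 3 without csu6-2 replicate 1 or Col-0 replicate 3.

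The same was seen at a pair of O-methyltransferase genes on chromosome 1. AT1G77530 (chr1:29135904-29137640) had 1.69, 0.95 and 2.00 RPKM in csu6-2, against 4.63, 4.10 and 3.14 RPKM in Col-0. Its relative AT1G77520, which is 84.3% identical over 886 bases and lies on the far side of the defensin-like AT1G77525, had 2.25, 1.97 and 2.61 RPKM in csu6-2, against 7.31, 7.30 and 5.86 RPKM in Col-0. AT1G77520 is not among the 96 because its Col-0 mean of 6.82 RPKM exceeds the range. It fell by 1.25 on the log2 scale (SE 0.12, adjusted p = 5.4e-05 in limma) and passed in all 12 alternatives. The flanking genes PDIL1-2 (-0.23, adjusted p = 0.0968) and AT1G77540 (-0.15, adjusted p = 0.249) did not pass.

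**Figure D5:**
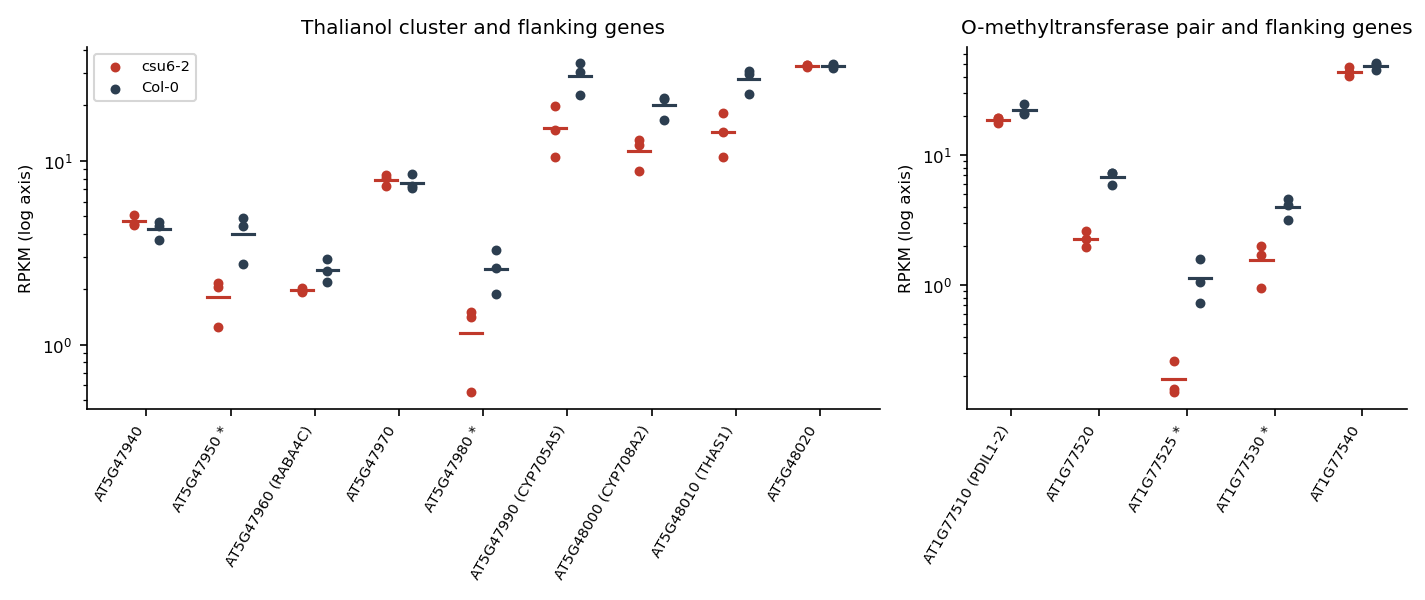
RPKM on a log axis in each library (points) with the mean (line) for genes in map order at the thalianol cluster (left) and the O-methyltransferase pair (right); stars mark genes of the 96. The starred genes are lower in csu6-2 with no overlap by the rule. CYP705A5, CYP708A2, THAS1 and AT1G77520, which are outside the 96, are also lower with no overlap. AT5G47970 and AT5G48020, at log2 differences of 0.05 and 0.01, lie level between genotypes.

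The other enzymes of this group were the glycosyltransferases AT3G55710 and UGT73C1 and the cytochrome P450 AT5G08250. AT3G55710 had 1.36, 1.01 and 1.37 RPKM in csu6-2, against 4.77, 4.19 and 3.83 RPKM in Col-0, or 29.2% of the Col-0 mean. UGT73C1, which can conjugate cytokinins, had 0.71, 0.41 and 0.72 RPKM in csu6-2, against 2.16, 1.46 and 1.72 RPKM in Col-0. The rule requires both to be lower in every csu6-2 library, and the margin was wider than the spread within either genotype. DOGT1 (AT2G36800), also on chromosome 2, is 80.7% identical to UGT73C1 over 1472 bases. It had 6.34, 4.66 and 4.77 RPKM in csu6-2, against 13.99, 11.24 and 10.59 RPKM in Col-0, above the level range. The closer copy UGT73C2 was at most 0.07 RPKM in any library. DOGT1 was picked after its values were seen and is given without a test.

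The cell wall and lipids were the field of 6 genes, at 34.0 to 46.4% of the Col-0 mean. KCS17, a 3-ketoacyl-CoA synthase of the enzymes that lengthen fatty acids for wax and suberin, had 0.64, 0.40 and 0.27 RPKM in csu6-2, against 1.29, 1.27 and 1.18 RPKM in Col-0. The MD-2-related lipid recognition gene AT2G26370 had 0.46, 0.67 and 0.37 RPKM in csu6-2, against 1.64, 1.86 and 0.91 RPKM in Col-0. Col-0 was even across replicates for KCS17 and uneven for AT2G26370. The pectin methylesterase PME61, the peroxidase AT5G64110, the oleosin AT2G25890 and the lipid recognition gene AT1G45015 were the others. Of 15 tested KCS relatives, KCS5 (-0.44, adjusted p = 0.00483) and KCS8 (-0.44, adjusted p = 0.0221) were lower and KCS1 (0.41, adjusted p = 0.00447) and KCS9 (0.29, adjusted p = 0.0296) higher. The calls of KCS5 and KCS1 held in all 12 alternatives; that of KCS8 was lost in the rescaled fit (adjusted p = 0.0677) and without csu6-2 replicate 3 or Col-0 replicate 2 or 3, and that of KCS9 without csu6-2 replicate 2 or Col-0 replicate 1 or 3. Both were also lost with no low-value filter and with plain eBayes.

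Nutrient uptake was represented by 3 genes. NRT2.3, of the high-affinity nitrate transporters, had 0.58, 0.31 and 0.42 RPKM in csu6-2, against 0.96, 0.88 and 1.18 RPKM in Col-0. ZIP7, of the zinc and iron transporter family, had 0.40, 0.70 and 0.55 RPKM in csu6-2, against 1.41, 1.28 and 1.40 RPKM in Col-0. FRO5, a ferric and copper chelate reductase, had 0.55, 0.74 and 0.58 RPKM in csu6-2, against 1.45, 1.53 and 1.13 RPKM in Col-0. ZIP7 was steady in Col-0, and the lack of overlap between genotypes in all 3 is a condition of the rule.

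Of 7 other tested genes with an FRO symbol, 3 were higher in csu6-2 and 1 lower, against 3.55 and 9.38% of all tested genes. The 7 include FRO1 (AT5G67590), which did not pass (-0.07, adjusted p = 0.598). Its product is annotated as NADH-ubiquinone oxidoreductase-like and not as a ferric reductase, so it is no relative of FRO5 by product. FRO2, the main iron reductase of the root surface, averaged 4.74 RPKM in csu6-2 and 1.68 RPKM in Col-0 (log2 difference 1.11, SE 0.14, adjusted p = 0.000328). FRO6, a leaf reductase, averaged 37.0 RPKM in csu6-2 and 20.6 RPKM in Col-0 (log2 difference 0.82, SE 0.09, adjusted p = 0.000146). FRO3 was also higher (0.49, adjusted p = 0.0203) and FRO8 lower (-0.43, adjusted p = 0.0167), and both calls were lost without csu6-2 replicate 2 or 3, that of FRO3 also without csu6-2 replicate 1 or Col-0 replicate 3 and that of FRO8 without Col-0 replicate 2. FRO4, which lies beside FRO5 with 90.7% identity over 1347 bases, had 4.09, 3.34 and 3.11 RPKM in csu6-2, against 3.89, 5.08 and 4.08 RPKM in Col-0, and did not pass (-0.24, adjusted p = 0.227). ZIP1 was lower among 8 other tested genes with a ZIP symbol (-0.37, adjusted p = 0.0401). This call was lost under the rescaled fit and without csu6-2 replicate 2 or 3 or Col-0 replicate 2 or 3. The 8 include AT1G56590, which is annotated as a clathrin adaptor subunit and not as a transporter, and which did not pass (0.06, adjusted p = 0.710). Of 4 tested genes of nitrate uptake and reduction, 0 passed, and 2 were lower at an unadjusted p under 0.05.

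A group of 6 transcription regulators was reduced by the rule, at 32.6 to 47.1% of the Col-0 mean. They are the 5 with a transcription factor product, a share near that of the level range as given above, and OFP12, whose product does not name one. SPATULA (SPT), a bHLH factor related to the PIFs that restrains cotyledon and leaf growth and shapes the fruit, had 2.35, 2.08 and 2.10 RPKM in csu6-2, against 3.71, 5.38 and 4.76 RPKM in Col-0. SHN2, of the SHINE factors that promote wax and cutin, had 1.78, 1.18 and 2.00 RPKM in csu6-2, against 3.74, 3.47 and 3.99 RPKM in Col-0. The bHLH gene AT4G20970 had 0.61, 0.35 and 0.21 RPKM in csu6-2, against 1.02, 1.12 and 1.45 RPKM in Col-0. The rule requires the genotypes to be separate, and among these 3 the gap was widest for SHN2. OFP12, of the OVATE repressors, the bHLH gene AT4G25410 and the MADS-box gene AT5G27810 were the others.

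The remaining 48 protein-coding genes fell into 17 with an uncharacterised, hypothetical or numbered domain product (17.7% of the 96, against 11.7% of the level range) and 31 with another product. Among those 31 were AT1G52770, of the NPH3 family of phototropism adaptors, with 0.19, 0.29 and 0.21 RPKM in csu6-2, against 1.22, 1.77 and 1.34 RPKM in Col-0. AT1G59860, a small heat shock protein of the HSP20 class, had 0.89, 1.5 and 0.85 RPKM in csu6-2, against 2.82, 3.06 and 3.56 RPKM in Col-0. BGLU19, a beta-glucosidase, had 0.61, 0.54 and 0.63 RPKM in csu6-2, against 1.38, 1.69 and 2.28 RPKM in Col-0. The csu6-2 values of AT1G52770 and BGLU19 lay close together, and csu6-2 replicate 2 of AT1G59860 stood above the other two but well under Col-0. HP6, a phosphotransfer protein that inhibits cytokinin signalling, the P-type cyclin CYCP3;1, the carbonic anhydrase ACA2, the ubiquitin-conjugating enzyme UBC12 and the carboxypeptidase SCPL17 were also in this set.

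The uncharacterised genes had a median exon length of 839 bases, and a pair of them lies end to end on chromosome 5. AT5G27889 (chr5:9903437-9903598) had 0.49, 0.21 and 0.38 RPKM in csu6-2, against 2.76, 4.82 and 3.57 RPKM in Col-0. AT5G27890 (chr5:9903640-9905921) had 1.15, 0.85 and 0.56 RPKM in csu6-2, against 3.10, 2.73 and 2.35 RPKM in Col-0. The step between genotypes was wider for the shorter gene, which has 162 bases and an estimated 1.98 reads per csu6-2 library and 20.7 per Col-0 library. AT5G27890 resembles transcribed pseudogenes elsewhere, 85.2% identical over 904 bases to AT3G43310.

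MIR857 and MIR397b also lie together, 90 bases apart on the minus strand of chromosome 4. A single evening element (letters AAAATATCT or the reverse complement AGATATTTT), a sequence bound by clock factors, stands 13 bases before MIR397b and falls in the promoter windows of both, 250 bases before to 50 after each start. The stretch is printed on the strand of the genes with the element in capitals and runs into the mature miR397b.
MIR397b upstream (chr4:7878724-7878832, minus strand): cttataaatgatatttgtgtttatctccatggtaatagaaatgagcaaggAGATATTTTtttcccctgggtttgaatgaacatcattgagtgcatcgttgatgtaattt
Flanking this pair, the lipase gene AT4G13550 (-0.08, adjusted p = 0.658) and UNE15 (-0.05, adjusted p = 0.896) did not pass the limma test.

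In the same windows of 300 bases, the evening element was found in 6 of 93 genes (6.45%), counting that single element for both microRNA genes, against 3.05% of 4858 promoters in the level range and 2.62% of 31911 in all. The G-box CACGTG, a site of PIF and HY5 factors, was in 10 (10.8%), against 7.90% of the level range and 7.0% of all promoters. The PIF E-box CACATG or CATGTG was in 17 (18.3%), against 13.2 and 12.6%, and the ABRE-like ACGTGT or ACACGT was in 14 (15.1%), against 12 and 11.6%. These letters were searched on both strands, and CACGTGT holds both a G-box and an ABRE-like motif. Genes with a G-box included SPT, MIR164b, the thalianol acyltransferase gene AT5G47980 and the TIR-NBS gene AT1G17610. The window of MIR164b takes in its mature microRNA, printed above, which itself holds the letters CACGTG. A match is a string of letters, and binding was not measured.

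The nearest genes on each side were not used by the rule. There were 176 that were not themselves chosen, and 121 passed the low-value filter. Of these, 17 were lower and 3 higher in csu6-2, or 14 and 2.48%, against 9.38 and 3.55% of all 18885 tested genes. Their median log2 difference was -0.09, against -0.07 over all genes. With libraries rescaled by the median of ratios, the neighbours split into 9 lower and 7 higher.

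With values as deposited, neighbours on the opposite strand included 11 lower and 0 higher of 51 tested. Those on the same strand included 6 lower and 3 higher of 70, beside 9.38 and 3.55% of all tested genes. No strand split was made with rescaled libraries, where the neighbours together were 9 lower and 7 higher. Of the 17 tested neighbours that overlap a chosen gene, 3 were lower. The kinase gene AT4G34500, 637 bases from KCS17 and on the opposite strand, had 10.68, 9.71 and 10.66 RPKM in csu6-2, against 18.26, 19.07 and 21.42 RPKM in Col-0 (log2 difference -0.86, SE 0.09, adjusted p = 7.9e-05). The alkaline phosphatase-like AT4G29700, next to its relative AT4G29710 of the 96 and 90.9% identical to it over 459 bases, had 15.71, 11.72 and 13.49 RPKM in csu6-2, against 21.92, 23.16 and 19.42 RPKM in Col-0 (log2 difference -0.63, SE 0.11, adjusted p = 0.00232). Groups were apart for both. The ribosomal protein gene AT4G34555, which overlaps the F-box gene AT4G34550 of the 96 by 25 bases, was also lower (-0.49, SE 0.08, adjusted p = 0.00179).

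ARF18, an auxin response factor beside AT3G61840 (-0.50, adjusted p = 0.00628), and AT5G24000, beside FRO5 (-0.45, adjusted p = 0.00575), were lower too. ASG2, beside AT5G10946, was higher, with 16.82, 13.82 and 14.67 RPKM in csu6-2, against 11.11, 11.61 and 10.91 RPKM in Col-0 (log2 difference 0.40, SE 0.09, adjusted p = 0.0121). AT1G77520 and these 6 neighbours were the 7 of 20 called neighbours whose calls held in all 12 alternatives. The spliceosome and export helicase gene UAP56b, beside SHN2, was higher by 0.22 on the log2 scale (adjusted p = 0.0447), a call lost when any single library was left out. AT5G66610 (DAR7), beside AT5G66607, was lower (-0.36, adjusted p = 0.0452) and likewise lost its call without any single library.

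In all, 21 of the 93 genes overlap another annotated gene, 19 of them one on the opposite strand. The protein-coding AT5G10946 shares 118 bases with the microRNA gene MIR156d on the same strand. A copy at least 95% identical over 100 or more bases exists for 3 of the 93 (AT4G01980, AT1G67626 and AT4G37685), and any alignable copy for 38. For these genes the deposited values may hold reads of the partner.

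The lists around the genes' known roles moved unevenly. Of the sulfur deficiency genes, none of which is among the 96, 7 of 10 tested were lower and 0 higher, against 9.38 and 3.55% of all tested genes, with a median log2 difference of -0.42. The 7 fell to 4 without csu6-2 replicate 2 or without Col-0 replicate 2, and were 5 or 6 without any other single library. LSU2, a marker of sulfur shortage, had 35.67, 38.00 and 31.13 RPKM in csu6-2, against 52.26, 61.34 and 59.92 RPKM in Col-0 (log2 difference -0.71, SE 0.09, adjusted p = 0.000318). The sulfate reduction genes APR3 (-0.61, adjusted p = 0.000471) and APR2 (-0.49, adjusted p = 0.000744) were lower as well, and all 3 calls held in all 12 alternatives. At an unadjusted p under 0.05, 3756 of the 18806 tested genes outside the 96 were lower and 1432 higher. Of 10 jasmonate and wound response genes, 2 were lower and 0 higher, and at an unadjusted p under 0.05 there were 7 lower and 0 higher. Those that passed were VSP1 (-0.76, adjusted p = 0.00463) and LOX2 (-0.72, adjusted p = 0.000625), and without csu6-2 replicate 1 the list had 5 lower. Of 5 camalexin and indole defence genes, CYP79B2 was lower (-0.38, adjusted p = 0.0079). Of 14 tested genes of the RNA and DNA silencing machinery, 0 passed, 3 were lower at an unadjusted p under 0.05, and the median log2 difference was -0.10. Of 3 tested loci known to be silenced by DNA methylation or to vary epigenetically, the orphan gene QQS was lower, with 2.60, 3.92 and 2.73 RPKM in csu6-2, against 8.63, 10.08 and 16.71 RPKM in Col-0 (log2 difference -1.61, SE 0.24, adjusted p = 0.00673). The QQS call was lost without csu6-2 replicate 3 (adjusted p = 0.0596).

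Markers of tissues were compared between genotypes because many of the 96 genes are known from roots or from few cells. Beside the counts below, 9.38% of all 18885 tested genes were lower and 3.55% higher. At an unadjusted p under 0.05, 3756 of the 18806 tested genes outside the 96 were lower and 1432 higher. Summed root hair markers were 35.6, 24.0 and 34.2 RPKM in csu6-2, against 28.7, 20.9 and 22.5 RPKM in Col-0, and 0 of 5 tested passed, with 2 higher at an unadjusted p under 0.05. Endodermis markers summed to 38.9 to 50.2 RPKM in csu6-2 and 41.9 to 49.7 RPKM in Col-0, and 1 of 6 (SHR, -0.38, adjusted p = 0.0218) was lower, a call lost without csu6-2 replicate 2 or Col-0 replicate 2 or 3. Vascular markers summed to 120.6 to 134.7 RPKM in csu6-2 and 117.8 to 130.7 RPKM in Col-0, and 0 of 6 passed (0 also at an unadjusted p under 0.05). Stomatal lineage markers summed to 23.1 to 26.6 RPKM in csu6-2 and 33.7 to 37.6 RPKM in Col-0, and 2 of 5 were lower, TMM (-0.89, adjusted p = 0.000284) and SPCH (-0.68, adjusted p = 0.00254). Leaf photosynthesis markers were abundant in every library, at 50085 to 57426 RPKM in csu6-2 and 36634 to 45552 RPKM in Col-0, and 3 of 10 were higher, LHCB6, LHCA1 and LHB1B2. The LHCA1 call was lost without csu6-2 replicate 3, and that of LHB1B2 without csu6-2 replicate 2 or 3 or Col-0 replicate 3, and with replicate numbers as a block LHCB6 alone of the 3 passed (LHCA1 adjusted p = 0.104, LHB1B2 adjusted p = 0.133). Leaving out Col-0 replicate 1 gave 6 higher and 1 lower. Pollen markers were at 0 in all libraries, seed storage markers summed to at most 4.92 RPKM in csu6-2 and 3.56 RPKM in Col-0, and flower organ markers to at most 4.91 RPKM in csu6-2 and 4.29 RPKM in Col-0. The part of these shifts in the reduction of the 96 genes was not tested.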

How the data were processed

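RNA of whole seedlings was selected for poly(A) and sequenced as 3 csu6-2 and 3 Col-0 libraries. The deposited values are RPKM per gene, with 2 decimals, as the authors made them. The authors' processing notes, per the submitters, list HISAT2, edgeR 3.0.8 and TAIR10 with no role for any; which program counted reads, with what annotation, strand setting and filters, was not given in the sources used here. No read totals were used, so depth was estimated from the spacing of the lowest RPKM values, taking the commonest step as 2 reads; the estimated reads, but no other value, rest on that assumption.

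Genes with at least 1 RPKM in at least 3 libraries (18885) were tested on log2(RPKM + 1), which understates the change of low genes, with limma 3.58.1 (trend and robust eBayes, statmod 1.5.0, R 4.3.3) and Benjamini-Hochberg adjustment at 0.05; the script was tested on simulated data. Samples were grouped by the labelled genotype. Alternatives changed the pseudocount, filter, scaling, variance model, replicate block and library set. Identifiers were matched to RefSeq TAIR10.1 by locus tag (31912 of 32678), copies were found with blastn 2.17.0, and coordinates and sequences are of TAIR10.1. The genes, lists, product patterns, relatives and targets were chosen with earlier results of these data known. Genes are named by role, by lowest ratio to Col-0, as neighbours or relatives called by limma, or from the lists.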

Additional observations from a re-analysis of the deposited data

How the results depend on the processing

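The rule gave 96 genes, against 325 with a factor of 1.5, 27 with a factor of 3, and 110 to 157 when one library was left out, the highest without csu6-2 replicate 1. Rescaling by the median of ratios kept 81, all among the 96. It gave 1110 lower and 1066 higher calls, against 1771 and 671 as deposited, and 9 lower and 7 higher neighbours, against 17 and 3. Without a low-value filter 11 neighbours were lower. Leaving out one library gave 859 to 1790 lower calls and 389 to 674 higher calls, with the low counts without csu6-2 replicate 2 or 3 or Col-0 replicate 2. It gave 6 to 12 lower neighbours, fewest without Col-0 replicate 2, and 1 to 4 higher ones. A replicate block gave 2156 lower and 813 higher calls and, over the lists other than tissue markers, 1 higher gene, against 0, while higher photosynthesis markers fell to 1, against 3; same-numbered libraries correlated at 0.204, 0.0512 and 0.221 in their deviations, and csu6-2 replicate 2 was closest to Col-0 replicate 3, so the numbers were not taken as pairs. Where a called neighbour, relative or list gene lost its call, its log2 difference kept its sign. The balance of calls in a set could turn. The CLE relatives had 1 lower and 0 higher as deposited, and 0 lower and 2 higher in the rescaled fit. The median log2 difference over all tested genes was -0.07 as deposited and 0.0003 in the rescaled fit. The cause of these shifts was not tested. At these depths a gene of 89 bases at 1 RPKM holds only a few reads, so 0 values of short genes are imprecise.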
